A study of Homo sapiens with 24 samples.

Results

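The 27 genes described here encode the enzymes that build cholesterol and the proteins that sense and move it. They were chosen by symbol, from a list of the pathway, with earlier results of these data known. All 27 were found among the 25680 genes of each expression table. By role they comprise 8 genes of the mevalonate steps, 3 of the squalene steps, 8 of the late sterol steps and 8 of sensing and uptake. RNA was measured by poly(A) RNA sequencing in 24 libraries of 3 established human acute myeloid leukaemia lines, in 8 groups of 3 libraries each. MV411 cells, grown in liquid culture, received 2.5 µM MI-503 for 3 days together with 3 nM AC220 for 24 h (the combination), AC220 alone (3 nM, 24 h), MI-503 alone (2.5 µM, 3 days) or DMSO. MOLM13 and OCI-AML3 cells received 2.5 µM MI-503 for 4 days or DMSO. MI-503 blocks the binding of menin to MLL proteins and AC220 (quizartinib) inhibits the receptor kinase FLT3. MV411 and MOLM13 are known to carry an MLL (KMT2A) fusion and a FLT3 internal tandem duplication, while OCI-AML3 lacks an MLL fusion and has a mutated NPM1 gene. Each line is 1 model, so results hold for these lines.

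Cholesterol is made from acetyl-CoA through mevalonate, the branched isoprenoid farnesyl diphosphate, squalene and lanosterol, and the last enzymes trim and reduce lanosterol to cholesterol. When sterol in the endoplasmic reticulum membrane falls, the escort protein SCAP carries the precursor of the transcription factor SREBP2 to the Golgi, where the proteases encoded by MBTPS1 and MBTPS2 release it to switch on the genes of the pathway, its own gene SREBF2 included. INSIG proteins hold SCAP back when sterol is plentiful, and INSIG1 is itself a target of SREBP2.

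SREBP2 is known to act at promoters beside NF-Y and Sp1, and 4 promoters are shown: those of HMGCS1 and LSS, enzymes that fell in MV411, of SREBF2, the gene of the factor itself, and of SCAP, which rose there. Sequences are RefSeq promoters of GRCh38.p14, from 250 bases before to 50 bases after an annotated start site (300 bases, 5′ to 3′ on the gene's strand), with the sterol regulatory element core TCACNCCAC and the NF-Y box CCAAT, on either strand, in capitals. HMGCS1 is shown at the first of its listed starts (chr5:43313363-43313662, minus strand), with LSS (chr21:46228725-46229024, minus strand), SREBF2 (chr22:41832855-41833154, plus strand) and SCAP (chr3:47475892-47476191, minus strand).
HMGCS1: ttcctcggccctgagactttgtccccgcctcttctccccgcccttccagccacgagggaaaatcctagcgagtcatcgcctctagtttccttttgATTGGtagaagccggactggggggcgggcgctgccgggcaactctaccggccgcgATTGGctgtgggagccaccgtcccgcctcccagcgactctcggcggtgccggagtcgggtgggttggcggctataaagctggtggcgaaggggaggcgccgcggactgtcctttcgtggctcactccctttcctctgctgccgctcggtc
LSS: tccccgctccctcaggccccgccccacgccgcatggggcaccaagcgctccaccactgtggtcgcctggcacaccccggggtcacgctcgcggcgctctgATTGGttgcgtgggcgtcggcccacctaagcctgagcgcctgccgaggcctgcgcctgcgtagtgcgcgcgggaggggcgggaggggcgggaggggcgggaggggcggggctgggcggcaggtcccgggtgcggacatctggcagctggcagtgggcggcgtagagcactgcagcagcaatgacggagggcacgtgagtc
SREBF2: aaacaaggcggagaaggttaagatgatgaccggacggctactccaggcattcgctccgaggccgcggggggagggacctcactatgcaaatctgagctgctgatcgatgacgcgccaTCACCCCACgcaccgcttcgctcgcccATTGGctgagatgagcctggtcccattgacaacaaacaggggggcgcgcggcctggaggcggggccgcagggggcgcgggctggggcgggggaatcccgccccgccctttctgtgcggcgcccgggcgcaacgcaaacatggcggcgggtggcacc
SCAP: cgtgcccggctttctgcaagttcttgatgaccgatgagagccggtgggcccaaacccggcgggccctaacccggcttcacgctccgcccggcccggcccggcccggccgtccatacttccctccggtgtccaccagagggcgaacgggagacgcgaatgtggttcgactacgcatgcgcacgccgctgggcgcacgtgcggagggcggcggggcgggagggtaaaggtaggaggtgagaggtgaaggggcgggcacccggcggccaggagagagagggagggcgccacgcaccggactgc

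The SREBF2 promoter held both motifs, the element core from -133 to -125 and an NF-Y box from -106 to -102 relative to the start. HMGCS1 held 2 NF-Y boxes (-155 to -151 and -100 to -96) and LSS held 1 (-150 to -146), while the SCAP window held neither motif. Windows were matched by symbol for 24 members, with 32 windows because 6 members have several annotated starts, and some of these windows overlap. ACAT2, FDFT1 and SQLE had no entry. An NF-Y box stood in 20 of the 32 member windows (62.5%), against 34.6% of all 35116 windows of that length and 34.4% of the 14650 windows of genes tested in MV411. The Sp1 box GGGCGG was in 27 member windows (84.4%), against 45.0% of all windows and 64.1% of windows of tested genes. The E-box CACGTG was in 5 member windows (15.6%), against 7.26% of all windows and 9.27% of windows of tested genes. The element core was in 1 member window (3.13%), against 1.13% of all windows and 1.11% of windows of tested genes. In the member windows no match of one motif overlapped a match of another, and a match is only a match of letters.

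**Figure D1:**
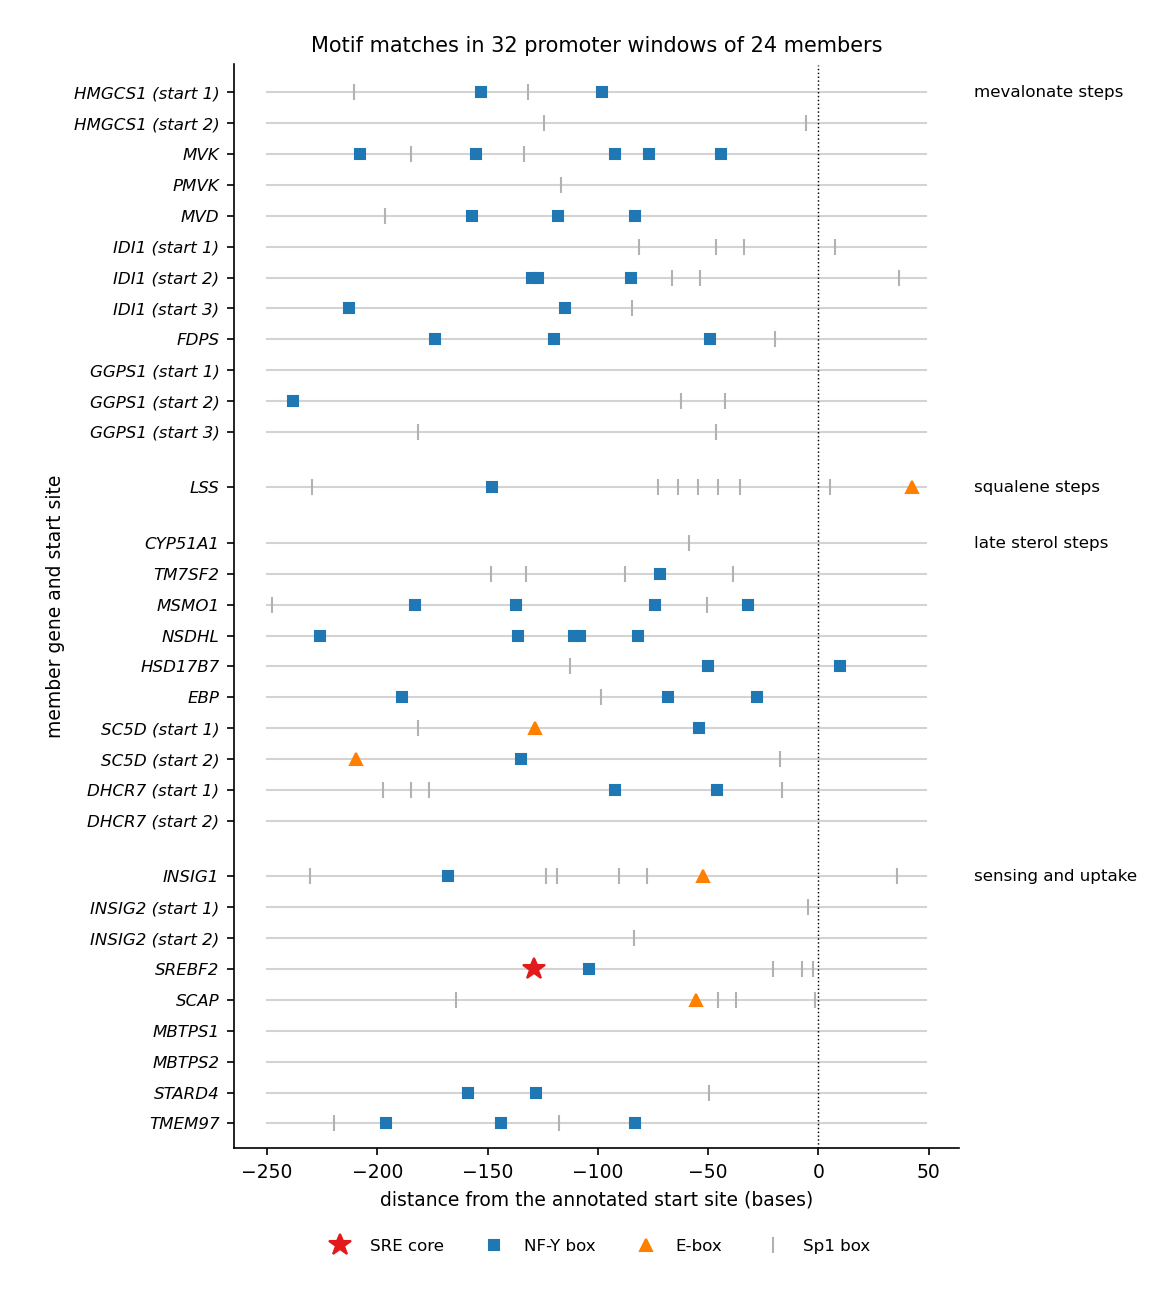
Matches of 4 motifs (either strand) in 32 promoter windows of 24 members, by distance in bases from the annotated start site, 1 row per window, grouped by step. NF-Y boxes (squares) stand in 20 windows, and the only element core (star) stands in SREBF2.

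Values below are the deposited normalised reads, called signal. In MOLM13 and OCI-AML3 they were divided by median-of-ratios factors, since the deposited factors did not centre the genes there. Spike-in RNA was added to the samples per the labels. The deposited values of all 3 lines are labelled ERCC_norm, a name for normalisation to spike-in RNA. Rescaling thus set aside the deposited normalisation in MOLM13 and OCI-AML3. Whether the shift comes from RNA content or from the scaling was not tested. On the deposited scale the median gene changed by -0.54 on the log2 scale with MI-503 in MOLM13 and by -0.16 in OCI-AML3. The deposited factors of MV411 equalled median-of-ratios factors up to a constant. Changes in MV411 are thus also relative to the median gene, despite the label. A change is a log2 fold change of signal plus 1 with its standard error (n = 3 libraries per group), tested with limma and Benjamini-Hochberg adjustment over all genes tested, and called at an adjusted p under 0.05. Libraries held 23168887 to 26596469 reads on genes in MV411, 23281330 to 27240357 in MOLM13 and 44364964 to 72994481 in OCI-AML3. The lowest member count was 27 reads (DHCR7 with AC220), and no member had a group mean under 10. All 6 myeloid markers checked had reads in every group. Their summed signal was 203372 to 204544 with the combination, 70756 to 75893 with AC220, 188628 to 199240.2 with MI-503 and 45191 to 47060.3 with DMSO in MV411. It was 29558.5 to 32399 with MI-503 and 14011 to 14671 with DMSO in MOLM13, and 92766 to 95949 with MI-503 and 83323 to 86286 with DMSO in OCI-AML3. The myeloid sum moved with the drugs, and its part in the results was not tested. In bulk RNA, fewer cells of a type and less RNA per cell cannot be told apart.

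Markers of other cell types were summed in the same way. The 6 T and NK cell markers summed to 2263 to 2551 with the combination, 986 to 1056 with AC220, 1721 to 1865 with MI-503 and 882 to 909.6 with DMSO in MV411. They summed to 764 to 866 with MI-503 and 260.4 to 269 with DMSO in MOLM13, and to 173 to 192 with MI-503 and 118 to 126 with DMSO in OCI-AML3. NKG7, a granule gene, held most of these sums, while CD2, CD3D, CD3E and CD3G were at or near 0. The 4 B cell markers summed to 71.2 to 93.6 with the combination, 113 to 149 with AC220, 67.2 to 82.8 with MI-503 and 126 to 148 with DMSO in MV411, to 893 to 1017 with MI-503 and 1348 to 1389 with DMSO in MOLM13, and to 32.5 to 46.9 with MI-503 and 41.3 to 54.3 with DMSO in OCI-AML3. PAX5 held most of the MOLM13 sum, and MS4A1 had no reads in MV411 or MOLM13. The megakaryocyte marker ITGA2B had 219.55 to 302 with the combination, 823 to 983 with AC220, 217 to 254 with MI-503 and 824 to 904 with DMSO in MV411. In MOLM13 it had 1.97 to 4.03 with MI-503 and 1.97 to 5.60 with DMSO, and in OCI-AML3 111 to 139 with MI-503 and 123 to 133 with DMSO. PF4 had 1 read in total over the 24 libraries. The 7 epithelial and fibroblast markers summed to 209 to 223 with the combination, 167 to 192 with AC220, 136 to 145 with MI-503 and 148 to 166 with DMSO in MV411, to 514 to 671 with MI-503 and 670.3 to 721 with DMSO in MOLM13, and to 424 to 543 with MI-503 and 469.5 to 517 with DMSO in OCI-AML3. KRT19 had no reads in MV411 or MOLM13, and EPCAM had none in OCI-AML3. The part of these markers in the results was not tested.

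A pair of OCI-AML3 libraries stood apart in the haemoglobin genes, which are marks of red cells. HBB had 273, 3 and 5 reads in MI-503 replicates 1, 2 and 3 and 0, 2 and 488 reads in DMSO replicates 1, 2 and 3, and HBA1 had 15, 1 and 2 reads with MI-503 and 0, 1 and 20 with DMSO. Neither gene had reads in MV411 or MOLM13. Results in OCI-AML3 are therefore also given without these 2 libraries, MI-503 replicate 1 and DMSO replicate 3, a choice made after seeing the data.

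**Figure D2:**
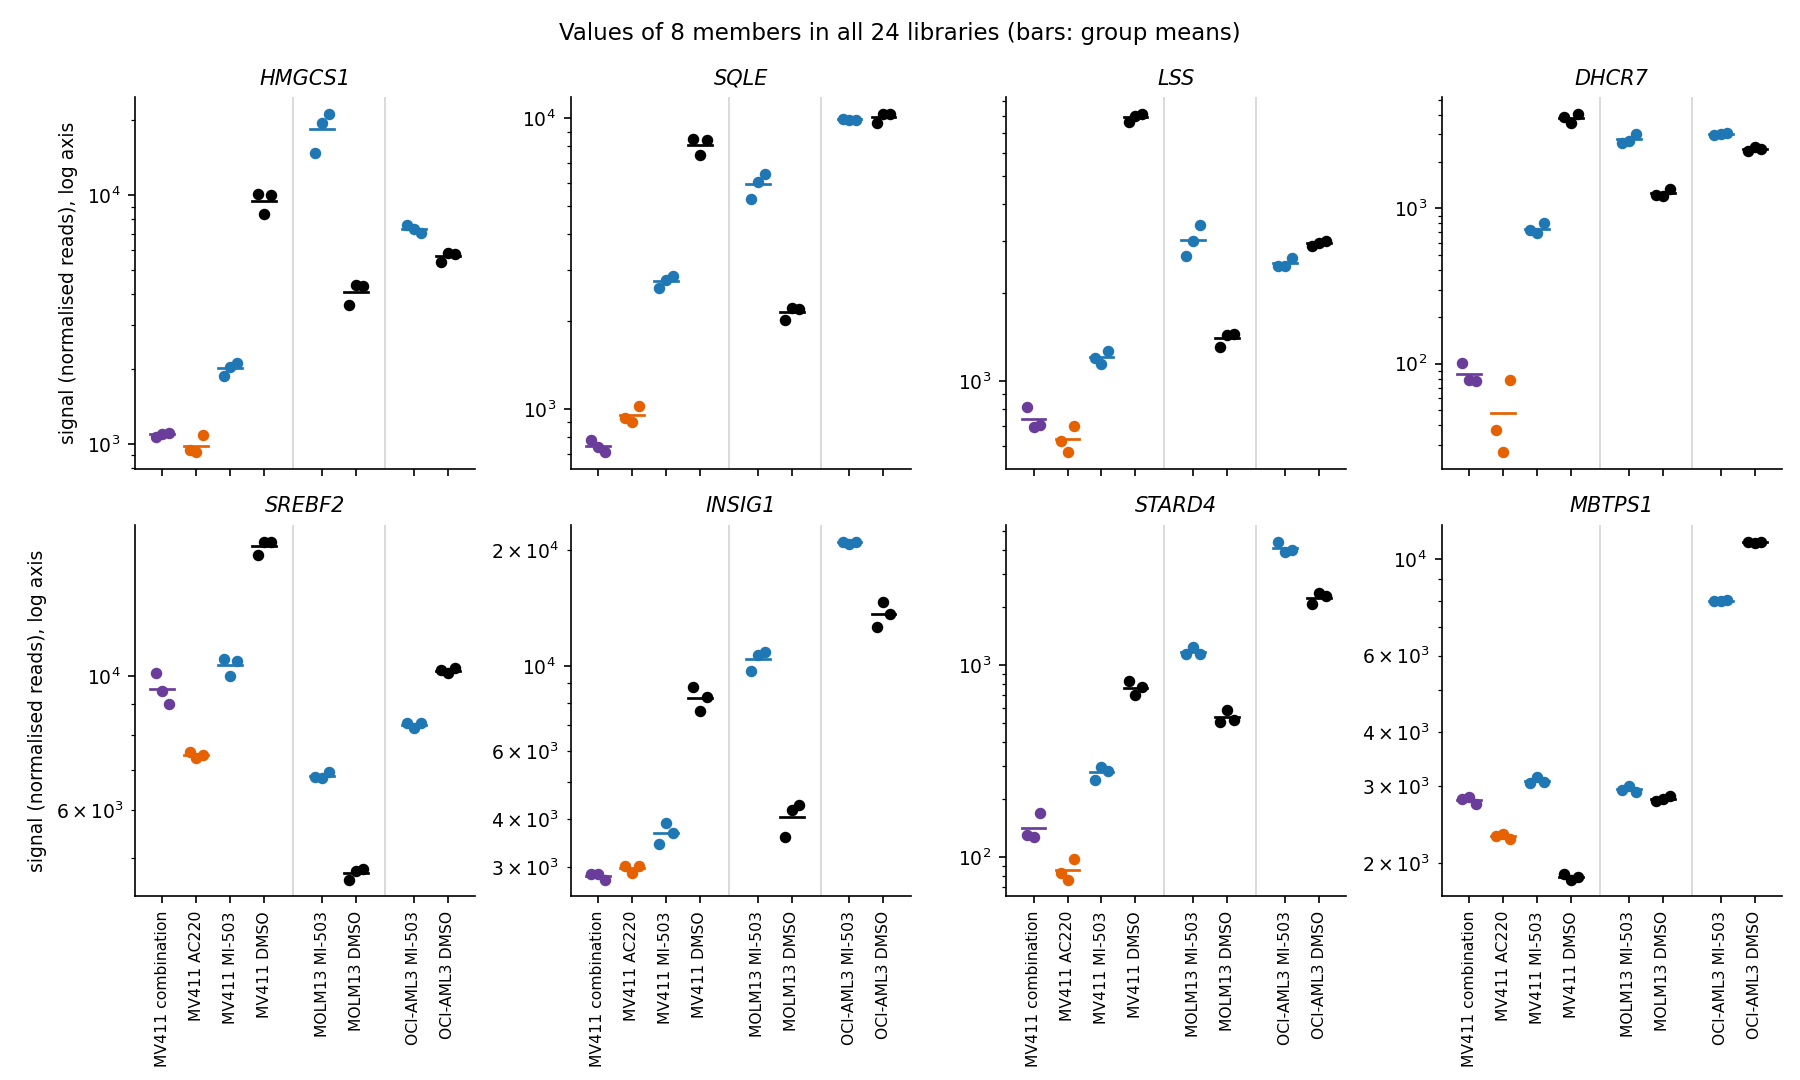
Signal (normalised reads, log axis) of 8 members in each of the 24 libraries, as points, with group means as bars and drug groups left of DMSO in each line. In MV411 the drug libraries of HMGCS1, SQLE, LSS, DHCR7, SREBF2, INSIG1 and STARD4 lie below the DMSO libraries, and those of MBTPS1 lie above them.

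Relative to the median gene, all 3 treatments lowered the pathway in MV411. With the combination 23 of 27 members fell and 2 rose, where 40.1% of all tested genes fell and 39.3% rose. With AC220 23 fell and 3 rose (37.3% and 37.7% of all tested genes), and with MI-503 22 fell and 2 rose (30.8% and 29.8% of all tested genes). The median member changed by -1.65 with the combination, -1.72 with AC220 and -1.31 with MI-503, while the median of all genes lay within 0.02 of 0 in each. The 3 comparisons share the DMSO libraries. A fall of at least 1 on the log2 scale was seen for 19 members with the combination, 20 with AC220 and 18 with MI-503. The share of all tested genes with such a fall was not counted.

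Of the 8 genes of the mevalonate steps 6 fell with all 3 treatments, and PMVK and GGPS1 did not. HMGCS1, which joins acetyl-CoA units into HMG-CoA (GRCh38.p14 chromosome 5, 43287470 to 43313412), had 1071, 1099 and 1106 signal with the combination, 943, 928 and 1083 with AC220, 1869, 2046 and 2119.6 with MI-503 and 10098, 8422 and 9981 with DMSO. The combination and AC220 libraries overlapped, MI-503 stood above both and DMSO far above all 3. Its changes against DMSO were -3.12 ± 0.066, adjusted p = 6.53e-22 with the combination, -3.27 ± 0.066, adjusted p = 3.11e-22 with AC220 and -2.24 ± 0.066, adjusted p = 2.72e-18 with MI-503. ACAT2, the thiolase of the first step, had 1048, 1042 and 1009.5 with the combination, 1087, 1101 and 1233 with AC220, 1794, 2009 and 1974 with MI-503 and 7112, 6628 and 7627 with DMSO. The drug groups did not reach the DMSO libraries, and its changes were -2.78 ± 0.058, -2.64 ± 0.058 and -1.89 ± 0.058 for the same 3 treatments. MVK, mevalonate kinase, was lowest with AC220 alone.

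MVK had 217, 166 and 171 with the combination, 110.4, 127 and 111 with AC220, 354, 377 and 378 with MI-503 and 763, 724 and 788 with DMSO. The 4 groups did not overlap, and the changes were -2.04 ± 0.096 with the combination, -2.70 ± 0.096 with AC220 and -1.03 ± 0.096 with MI-503. MVD, the decarboxylase that makes isopentenyl diphosphate, had 733, 603 and 560.2 with the combination, 541, 546 and 519 with AC220, 539, 553 and 592 with MI-503 and 2028, 1908 and 2003 with DMSO. The drug groups lay close together, MI-503 overlapping both of the others, well below DMSO (-1.65 ± 0.074 with the combination, -1.88 ± 0.074 with AC220 and -1.82 ± 0.074 with MI-503). IDI1, the isomerase of isopentenyl diphosphate, had 1058, 1169.9 and 1192 with the combination, 1337, 1295 and 1453 with AC220, 2117, 2221 and 2138 with MI-503 and 6554, 5818 and 6254 with DMSO. The combination was the lowest group and did not overlap the others (-2.44 ± 0.055 with the combination, -2.19 ± 0.055 with AC220 and -1.52 ± 0.055 with MI-503). FDPS, farnesyl diphosphate synthase, had 2111, 2020.4 and 1898 with the combination, 1751, 1887 and 1971 with AC220, 3615, 3909.7 and 3976 with MI-503 and 11546, 10662 and 12753 with DMSO. Combination and AC220 libraries overlapped below MI-503 (-2.53 ± 0.059 with the combination, -2.64 ± 0.059 with AC220 and -1.60 ± 0.059 with MI-503). The annotation holds 8 pseudogenes of FDPS and an opposite-strand gene over 18.6% of its exons, and whether reads were counted by strand is not given in the sources used here.

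PMVK, the phosphomevalonate kinase between MVK and MVD, had 521, 451 and 502 with the combination, 619.9, 582 and 605 with AC220, 661, 672 and 700.0 with MI-503 and 655, 674 and 705 with DMSO. Its MI-503 and DMSO libraries overlapped, and the combination lay below every other group. The change was -0.47 ± 0.065, adjusted p = 5.93e-07 with the combination, -0.17 ± 0.065, adjusted p = 0.0213 with AC220 (not called without 1 AC220 or 1 DMSO library) and -0.00093 ± 0.065, adjusted p = 0.992 with MI-503, an interval of -0.13 to 0.13 (2 SE). GGPS1 draws farnesyl diphosphate away to geranylgeranyl diphosphate, the lipid of many prenylated proteins. It had 723, 710.1 and 806 with the combination, 887, 944 and 990.1 with AC220, 580.4, 687 and 672 with MI-503 and 658, 738 and 696 with DMSO. The AC220 libraries lay above all others, and GGPS1 rose with AC220 (0.43 ± 0.071, adjusted p = 8.62e-06). It was not called with the combination (0.10 ± 0.071) or MI-503 (-0.11 ± 0.071). TBCE shares 37.3% of the exonic bases of GGPS1 on the same strand, so reads there could belong to either gene. Exons of MVK (with MMAB), ACAT2 (with SOD2 and TCP1) and IDI1 (with IDI2-AS1) also overlap those of a neighbour. So do those of TMEM97 (with IFT20) and MBTPS2 (with YY2). HMGCS1 shares 14.95% of its exonic bases with the opposite-strand AC114947.2. Smaller overlaps are annotated for LSS, FDFT1, SREBF2, STARD4 and TM7SF2. HSD17B7 and TMEM97 have pseudogenes. The reads of all these genes are less certain for it.

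The squalene steps fell in full, 3 of 3 with each treatment. LSS, the cyclase that makes lanosterol (GRCh38.p14 chromosome 21, 46188446 to 46228774), had 814, 698 and 707 with the combination, 623, 572 and 701 with AC220, 1198, 1146 and 1264 with MI-503 and 7607, 7986 and 8116 with DMSO. AC220 and combination libraries overlapped, at 9.35% of DMSO with the combination and 7.98% with AC220, and MI-503 stood between them and DMSO. The changes were -3.42 ± 0.067, adjusted p = 1.85e-22 with the combination, -3.65 ± 0.067, adjusted p = 7.54e-23 with AC220 and -2.72 ± 0.067, adjusted p = 1.56e-19 with MI-503, the lowest change of any member with MI-503. SQLE, squalene epoxidase, had 779, 741 and 711 with the combination, 929, 903 and 1020.1 with AC220, 2602, 2787 and 2877 with MI-503 and 8455, 7459 and 8421 with DMSO. The 4 groups did not overlap and the combination was lowest (-3.44 ± 0.058 with the combination, -3.09 ± 0.058 with AC220 and -1.56 ± 0.058 with MI-503). FDFT1, squalene synthase, had 6412, 5874 and 5801 with the combination, 5602, 5839.5 and 6031 with AC220, 7345, 7829 and 8096 with MI-503 and 15659, 15227 and 16899 with DMSO. It fell less than the other enzymes of these steps, to 37.9% of DMSO with the combination, 36.6% with AC220 and 48.7% with MI-503.

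All 8 enzymes of the late sterol steps fell with each treatment. DHCR7, the reductase that makes cholesterol from its last precursor (GRCh38.p14 chromosome 11, 71427287 to 71449043), had 102, 78.3 and 76.9 with the combination, 37.4, 26.9 and 78.8 with AC220, 726, 692 and 808 with MI-503 and 3905, 3567 and 4060.3 with DMSO. One AC220 library reached the combination libraries and the others lay below them, MI-503 stood well above both, and DMSO stood highest. With -6.45 ± 0.21, adjusted p = 2.54e-18, AC220 left 1.15% of the DMSO level, the largest fall of the 27 members, against -5.48 ± 0.21, adjusted p = 3.74e-17 with the combination and -2.37 ± 0.21, adjusted p = 1.06e-09 with MI-503. CYP51A1, the lanosterol demethylase, had 335, 358 and 398 with the combination, 355, 314 and 389 with AC220, 919, 882 and 797 with MI-503 and 2779.7, 2391 and 2582 with DMSO. Its combination and AC220 libraries overlapped below MI-503 (-2.83 ± 0.080 with the combination, -2.87 ± 0.080 with AC220 and -1.58 ± 0.080 with MI-503). A readthrough gene on the same strand covers 79.4% of its exons and 3 pseudogenes exist, so its reads are uncertain. MSMO1, the methylsterol monooxygenase, had 292, 332 and 347 with the combination, 402, 320.3 and 391 with AC220, 633, 740.4 and 659 with MI-503 and 2186, 1669 and 2011 with DMSO, again with combination and AC220 overlapping.

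The changes of MSMO1 were -2.59 ± 0.095 with the combination, -2.39 ± 0.095 with AC220 and -1.52 ± 0.095 with MI-503. TM7SF2, a sterol reductase that acts after CYP51A1, had 373, 371 and 352 with the combination, 302, 301 and 325 with AC220, 428, 391 and 417 with MI-503 and 1069, 962 and 1040.5 with DMSO. SC5D, a sterol desaturase, had 548, 660.2 and 657 with the combination, 519, 469.6 and 496 with AC220, 768, 824 and 785 with MI-503 and 1335, 1161 and 1202 with DMSO. For both genes AC220 was lowest and no groups overlapped, with changes of -1.48 ± 0.068, -1.72 ± 0.068 and -1.31 ± 0.068 for TM7SF2 with the combination, AC220 and MI-503, and -0.99 ± 0.072, -1.31 ± 0.072 and -0.64 ± 0.072 for SC5D. EBP, the sterol isomerase, changed by -1.78 ± 0.071 with the combination, -1.89 ± 0.071 with AC220 and -1.37 ± 0.071 with MI-503. NSDHL and HSD17B7, which act with MSMO1 in removing methyl groups, changed by -1.16 and -1.39 with the combination, -1.30 and -1.41 with AC220, and -0.76 and -1.22 with MI-503.

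The sensing genes split. Of these 8, 5 fell and 2 rose with each treatment. SREBF2, which encodes SREBP2 (GRCh38.p14 chromosome 22, 41833105 to 41907305), had 10104, 9439 and 9003 with the combination, 7496, 7322 and 7407 with AC220, 10679, 10019 and 10602 with MI-503 and 15887, 16677 and 16706 with DMSO. AC220 was lowest, combination and MI-503 libraries overlapped, and DMSO was highest. Its changes were -0.79 ± 0.042, adjusted p = 2.20e-14 with the combination, -1.15 ± 0.042, adjusted p = 2.43e-17 with AC220 and -0.65 ± 0.042, adjusted p = 3.87e-12 with MI-503. INSIG1, the retention protein induced by SREBP2 (GRCh38.p14 chromosome 7, 155297878 to 155310235), had 2871, 2885 and 2786 with the combination, 3025, 2895 and 3015 with AC220, 3442, 3912 and 3679 with MI-503 and 8795, 7611 and 8288 with DMSO. All drug libraries lay below DMSO (-1.53 ± 0.051 with the combination, -1.46 ± 0.051 with AC220 and -1.16 ± 0.051 with MI-503). INSIG2, its relative, changed less, by -0.56 ± 0.094, adjusted p = 9.00e-06 with the combination, -0.40 ± 0.094, adjusted p = 5.27e-04 with AC220 and -0.50 ± 0.094, adjusted p = 7.31e-05 with MI-503.

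STARD4, a carrier that moves sterol between membranes (GRCh38.p14 chromosome 5, 111496033 to 111512535), had 131, 127 and 170.3 with the combination, 82.5, 76.6 and 98.5 with AC220, 254, 295 and 280.4 with MI-503 and 827, 698 and 767 with DMSO. The 4 groups did not overlap and AC220 was lowest (-2.42 ± 0.11 with the combination, -3.14 ± 0.11 with AC220 and -1.46 ± 0.11 with MI-503). TMEM97, a membrane protein (the sigma-2 receptor) that binds the sterol transporter NPC1, had 1740.2, 1665 and 1703 with the combination, 3028, 3204 and 3141 with AC220, 2179, 2138 and 2105 with MI-503 and 6263, 5617 and 6126 with DMSO. Here the MI-503 libraries lay below the AC220 libraries and the combination was lowest (-1.82 ± 0.045 with the combination, -0.94 ± 0.045 with AC220 and -1.49 ± 0.045 with MI-503). The carrier and protease of SREBP2 went the other way. SCAP had 2143, 1979.7 and 1885 with the combination, 1933, 2097 and 1871 with AC220, 1963, 1886 and 1932 with MI-503 and 1483, 1403 and 1493 with DMSO. MBTPS1, the first of the Golgi proteases, had 2804, 2837 and 2736 with the combination, 2306, 2335 and 2273 with AC220, 3047, 3145 and 3067 with MI-503 and 1883, 1831 and 1857 with DMSO. Every drug library of both genes lay above every DMSO library. SCAP rose by 0.45 ± 0.053 with the combination, 0.43 ± 0.053 with AC220 and 0.40 ± 0.053 with MI-503, and MBTPS1 by 0.59 ± 0.041, 0.31 ± 0.041 and 0.73 ± 0.041 with the same treatments. MBTPS2, the second protease, was not called with any treatment (0.15 ± 0.070, adjusted p = 0.0529 with the combination, 0.030 ± 0.070, adjusted p = 0.711 with AC220 and 0.10 ± 0.070, adjusted p = 0.235 with MI-503).

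Of the 19 members with a promoter window that fell with MI-503, 17 had an NF-Y box in at least 1 window, with CYP51A1 and INSIG2 lacking one. Of the 5 that rose or were not called, GGPS1 had one, at 1 of its 3 starts, and PMVK, SCAP, MBTPS1 and MBTPS2 had none. These counts are per gene, while the 34.4% given above for genes tested in MV411 is per window. The share of all tested genes, or of those that fell, with a box in at least 1 window was not counted. The counts therefore have no reference, and a link between the box and the response was not tested. This is a description of letters near annotated starts, and the start used in these cells was not measured.

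**Figure D3:**
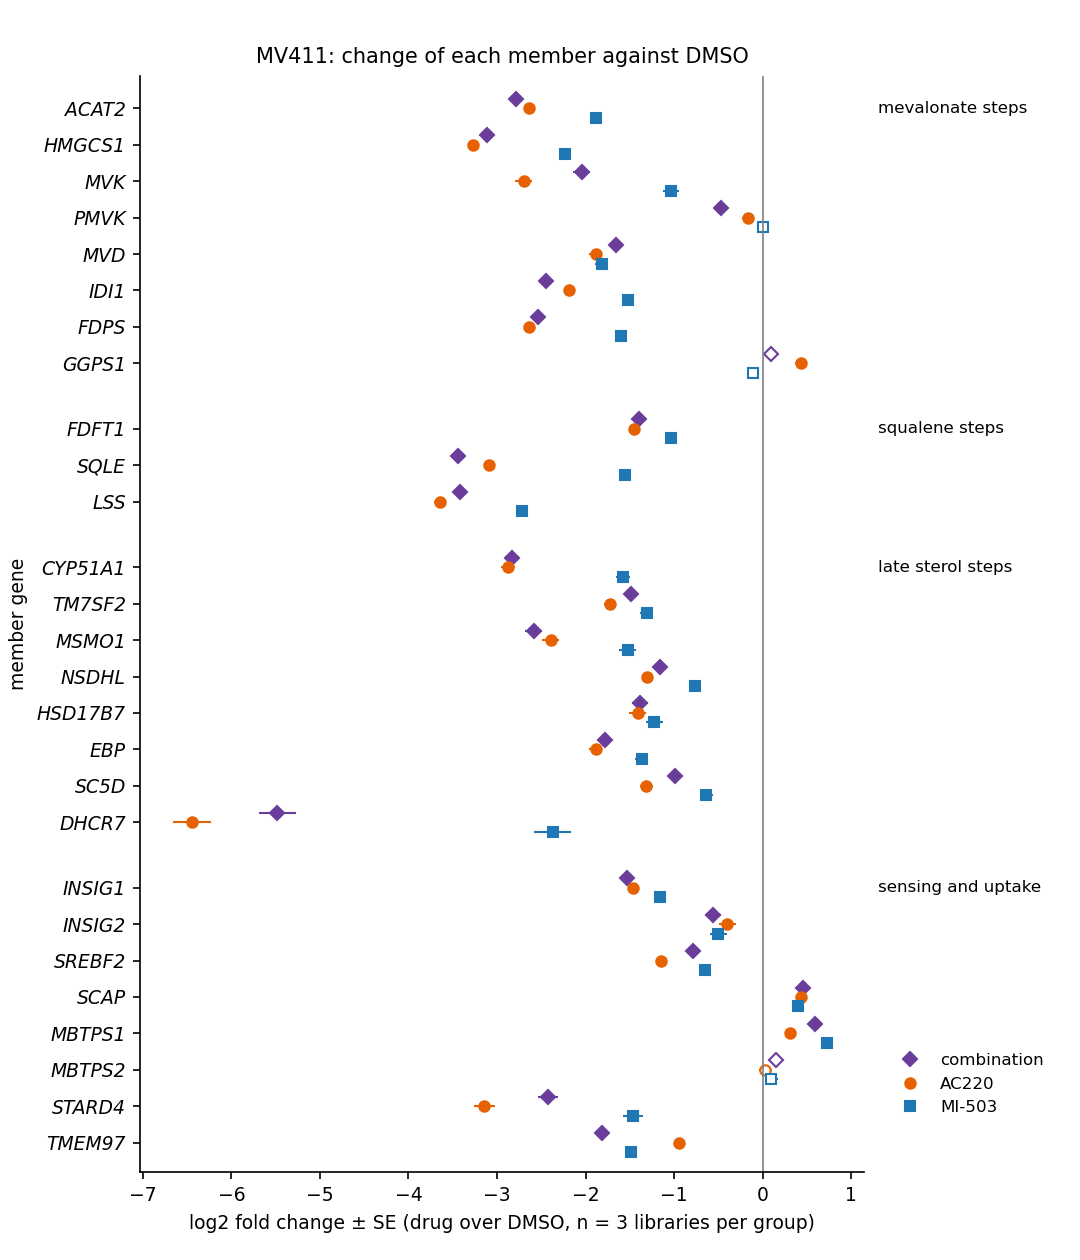
Log2 fold change against DMSO of the 27 members in MV411 with the combination (diamonds), AC220 (circles) and MI-503 (squares), with standard errors, n = 3 libraries per group, by step. Filled points are called at an adjusted p under 0.05. DHCR7 with AC220 lies farthest left at -6.45, and SCAP and MBTPS1 lie right of 0 with all 3 treatments.

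The combination was set against each drug alone. Against MI-503, 21 members fell and 1 rose with the combination (33.6% and 34.9% of all tested genes), with a median change of -0.39 (0.024 over all genes). DHCR7 changed by -3.11 ± 0.21, adjusted p = 4.64e-12 and SQLE by -1.89 ± 0.058, adjusted p = 2.22e-18, the members with the largest falls. CYP51A1 (-1.25 ± 0.080), MSMO1 (-1.06 ± 0.095), MVK (-1.01 ± 0.096), STARD4 (-0.96 ± 0.11), FDPS (-0.93 ± 0.059) and IDI1 (-0.92 ± 0.055) followed. LSS (-0.70 ± 0.067), FDFT1 (-0.36 ± 0.048), INSIG1 (-0.37 ± 0.051) and TMEM97 (-0.33 ± 0.045) fell less. HMGCS1 (-0.88 ± 0.066), ACAT2 (-0.90 ± 0.058), PMVK (-0.47 ± 0.065), NSDHL (-0.39 ± 0.062), EBP (-0.42 ± 0.071), SC5D (-0.35 ± 0.072) and MBTPS1 (-0.14 ± 0.041) fell too, as did SREBF2 (-0.13 ± 0.042, adjusted p = 0.00737), not called without 1 combination library, and TM7SF2 (-0.17 ± 0.068, adjusted p = 0.0306), lost with DESeq2 and other settings. GGPS1 rose (0.21 ± 0.071, adjusted p = 0.0124), a call lost without 1 MI-503 or 1 combination library, and MVD, HSD17B7, INSIG2, SCAP and MBTPS2 were not called.

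Against AC220, 6 members fell and 9 rose with the combination (28.1% and 27.4% of all tested genes), with a median change of 0.10 (-0.0086 over all genes), and 12 were not called. DHCR7 was higher with the combination than with AC220 (0.96 ± 0.21, adjusted p = 4.52e-04), as were STARD4 (0.72 ± 0.11), MVK (0.66 ± 0.096), SREBF2 (0.36 ± 0.042), SC5D (0.32 ± 0.072), TM7SF2 (0.24 ± 0.068), MVD (0.23 ± 0.074), LSS (0.23 ± 0.067) and MBTPS1 (0.28 ± 0.041). The calls of MVD and LSS were each lost without 1 library. TMEM97 was lower (-0.88 ± 0.045, adjusted p = 9.91e-14), followed by SQLE (-0.35 ± 0.058), GGPS1 (-0.33 ± 0.071), PMVK (-0.30 ± 0.065), IDI1 (-0.26 ± 0.055) and ACAT2 (-0.14 ± 0.058, adjusted p = 0.0429). The ACAT2 call was lost with edgeR and DESeq2 and under other settings. HMGCS1 did not pass (0.15 ± 0.066, adjusted p = 0.0526) but did with TMM factors, with an interval of 0.021 to 0.28 (2 SE). With the combination, 5 members (ACAT2, PMVK, IDI1, SQLE and TMEM97) were below each single drug, and 8 lay below MI-503 and above AC220. How many of all tested genes had these patterns was not counted.

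Effects of the drugs on the pathway did not add up. The interaction, the combination's change minus the sum of the single changes, was above 0 for 22 members and below 0 for 3 (20.9% and 21.6% of all tested genes), with a median of 1.25 (-0.018 over all genes). DHCR7 would have reached 0.222% of DMSO if the single effects had multiplied, and stood at 2.24% (interaction 3.34 ± 0.30, adjusted p = 3.71e-09). LSS would have reached 1.22% and stood at 9.35% (2.94 ± 0.095, adjusted p = 1.64e-16), and HMGCS1 2.20% and 11.5% (2.39 ± 0.093, adjusted p = 2.84e-15). STARD4 (2.18 ± 0.16), MVD (2.05 ± 0.10), ACAT2 (1.75 ± 0.082), CYP51A1 (1.62 ± 0.11), TM7SF2 (1.55 ± 0.097), SQLE (1.20 ± 0.082), INSIG1 (1.10 ± 0.072), FDFT1 (1.09 ± 0.068) and SREBF2 (1.01 ± 0.060) were also above 0, as were the other called members not listed here, MVK, IDI1, FDPS, MSMO1, NSDHL, HSD17B7, EBP and SC5D, from 0.91 to 1.71. The interaction of TMEM97 was smaller (0.61 ± 0.064), and that of INSIG2 (0.34 ± 0.13, adjusted p = 0.0425) was lost under several settings, among them TMM factors and DESeq2. SCAP (-0.38 ± 0.075) and MBTPS1 (-0.46 ± 0.058), which rose with each drug, had interactions below 0, so that their combined rise was also less than the sum. PMVK was the exception, lower with the combination than the sum (-0.30 ± 0.092, adjusted p = 0.0119). GGPS1 (-0.22 ± 0.10) and MBTPS2 (0.023 ± 0.099) were not called.

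**Figure D4:**
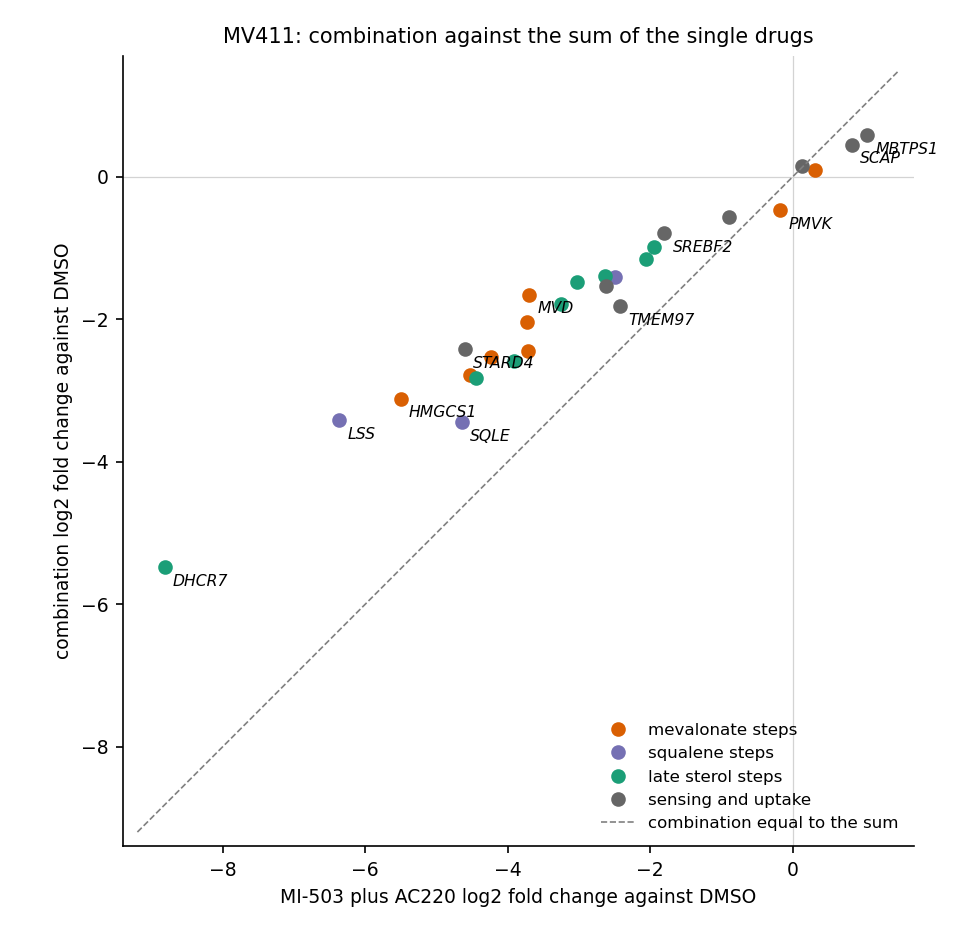
Combination log2 fold change (y axis) against the sum of the MI-503 and AC220 log2 fold changes (x axis) for the 27 members in MV411, coloured by step, with a dashed line where they would be equal. Falling members lie above the line, DHCR7 at -5.48 against a sum of -8.82 and LSS at -3.42 against -6.36, and PMVK lies below it.

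In MOLM13, MI-503 raised the pathway relative to the median gene. Of 27 members 23 rose and 2 fell, against 29.9% and 29.9% of all tested genes, and the median member changed by 0.93 (-0.011 over all genes). On the deposited scale 16 rose and 6 fell, where 903 of 13393 genes rose and 10270 fell, and the signs of GGPS1 (-0.47), NSDHL (-0.0057), INSIG2 (-0.30), MBTPS1 (-0.46) and TMEM97 (-0.091) turned. FDPS, HSD17B7 and SREBF2 were not called there, and MBTPS2 fell. Changes below are relative to the median gene.

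HMGCS1 had 14720.0, 19454 and 21169 signal with MI-503 and 3605, 4347 and 4299.8 with DMSO in MOLM13. Every MI-503 library lay over 3 times above every DMSO library, a change of 2.16 ± 0.093, adjusted p = 3.86e-12. ACAT2 had 8034, 9164 and 10254 with MI-503 and 3645, 3745 and 3752 with DMSO (1.29 ± 0.057, adjusted p = 5.12e-12). MVK had 886, 899.9 and 1032 with MI-503 and 469, 482 and 481 with DMSO (0.97 ± 0.059, adjusted p = 3.56e-10). Both groups stood apart in each gene, and IDI1 (0.86 ± 0.050), MVD (0.85 ± 0.076) and FDPS (0.68 ± 0.042) rose too. PMVK had 892, 909.8 and 845 with MI-503 and 962, 926 and 997 with DMSO. These ranges were close, and its fall (-0.12 ± 0.047, adjusted p = 0.0303) was lost with DESeq2, without the variance trend and without 1 of several libraries. GGPS1 was not called (0.065 ± 0.045, adjusted p = 0.225).

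Among the squalene steps, SQLE had 5284, 6041 and 6443 with MI-503 and 2017, 2227 and 2209 with DMSO (1.46 ± 0.055, adjusted p = 7.09e-13). LSS had 2661, 2995 and 3403 with MI-503 and 1309, 1438 and 1442 with DMSO (1.11 ± 0.064, adjusted p = 1.93e-10). FDFT1 had 11793, 12554 and 12939 with MI-503 and 5753, 5890.5 and 6173 with DMSO (1.06 ± 0.034, adjusted p = 9.57e-14). In all 3 the lowest MI-503 library was well above the highest DMSO library. TM7SF2 had 246, 329 and 334 with MI-503 and 75.6, 75.9 and 85.1 with DMSO, the largest rise of the late steps (1.92 ± 0.12, adjusted p = 5.17e-10). MSMO1 had 2545, 2740.5 and 2779 with MI-503 and 734, 784 and 823 with DMSO (1.78 ± 0.046, adjusted p = 7.29e-15). CYP51A1 had 4742, 5628 and 5862 with MI-503 and 1993, 2230.1 and 2201 with DMSO (1.33 ± 0.060, adjusted p = 6.75e-12). No MI-503 library of these genes came near DMSO, and DHCR7 (1.15 ± 0.049), SC5D (1.14 ± 0.049), EBP (0.93 ± 0.045), HSD17B7 (0.57 ± 0.071) and NSDHL (0.53 ± 0.052) rose less.

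INSIG1 had 9681, 10645 and 10887 with MI-503 and 3602, 4226 and 4341 with DMSO in MOLM13 (1.36 ± 0.055, adjusted p = 1.70e-12). STARD4 had 1148, 1242 and 1146 with MI-503 and 509, 582 and 519 with DMSO (1.14 ± 0.056, adjusted p = 2.55e-11). SREBF2 had 6793, 6785 and 6942 with MI-503 and 4601, 4755 and 4794 with DMSO (0.54 ± 0.027, adjusted p = 3.65e-11). All 3 rose with groups well apart, while TMEM97 (0.44 ± 0.037) and INSIG2 (0.23 ± 0.072, adjusted p = 0.0120) rose less. SCAP, their partner in the membrane, went the other way. SCAP had 1292, 1241 and 1296 with MI-503 and 1506, 1503 and 1494 with DMSO, and fell (-0.23 ± 0.037, adjusted p = 3.79e-05). MBTPS1 had 2942, 3008 and 2916 with MI-503 and 2777, 2808 and 2850.0 with DMSO. Its narrow rise (0.072 ± 0.030, adjusted p = 0.0486) was lost under several settings, and MBTPS2 was not called (-0.064 ± 0.051, adjusted p = 0.295). The call of INSIG2 was lost without either of 2 libraries, and its sign turned on the deposited scale.

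In OCI-AML3, MI-503 moved the members in both directions. Of 27, 12 rose and 6 fell, against 32.9% and 32.8% of all tested genes, with a median change of 0.12 (-0.0013 over all genes). Whether these counts differ from the background was not tested. Without the 2 libraries that hold haemoglobin reads 13 rose and 7 fell, and rises and falls over all tested genes were not counted apart in that fit. No member passed on the deposited scale (0 rose and 0 fell, where 605 of 15700 genes rose and 1071 fell). ACAT2, a called rise of 0.12 ± 0.042 after rescaling, stood at -0.042 there. The change was within 0.25 of 0 for 15 members, and none rose by 1 on the log2 scale. Neither share was counted over all tested genes.

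STARD4 had 4408, 3874 and 3995 with MI-503 and 2088, 2382 and 2285 with DMSO in OCI-AML3, the largest rise (0.86 ± 0.055, adjusted p = 4.77e-08). INSIG1 had 21032, 20743 and 20991 with MI-503 and 12580.0, 14626 and 13653 with DMSO (0.62 ± 0.043, adjusted p = 1.03e-07). EBP had 1148, 1262 and 1262 with MI-503 and 678, 679 and 686 with DMSO (0.84 ± 0.049, adjusted p = 2.21e-08). In these 3 genes the groups stood clearly apart. MSMO1 had 3156, 2710.1 and 2936 with MI-503 and 1828, 1979 and 1986 with DMSO (0.60 ± 0.053, adjusted p = 8.81e-07). TM7SF2 had 569.7, 596 and 639.6 with MI-503 and 415, 425 and 429.5 with DMSO (0.51 ± 0.059, adjusted p = 1.01e-05). HMGCS1 had 7600.0, 7334 and 7049 with MI-503 and 5377, 5862 and 5786 with DMSO (0.37 ± 0.039, adjusted p = 3.76e-06). These rises were smaller but did not overlap DMSO, and INSIG2 (0.45 ± 0.054), DHCR7 (0.31 ± 0.035), FDPS (0.22 ± 0.025), PMVK (0.21 ± 0.058) and FDFT1 (0.20 ± 0.026) rose as well. The groups of ACAT2 overlapped, and its rise (0.12 ± 0.042, adjusted p = 0.0261) was lost without 1 of the DMSO libraries.

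Of the 8 sensing genes 4 fell and 3 rose in OCI-AML3. MBTPS2 had 761, 666 and 684 with MI-503 and 968, 995 and 928 with DMSO (-0.46 ± 0.058, adjusted p = 1.93e-05). MBTPS1 had 8002, 8016 and 8045 with MI-503 and 10953, 10888 and 10982 with DMSO (-0.45 ± 0.024, adjusted p = 1.15e-08). SREBF2 had 8366, 8207 and 8350.0 with MI-503 and 10216, 10113 and 10308 with DMSO (-0.30 ± 0.025, adjusted p = 5.71e-07). The MI-503 libraries lay below all DMSO libraries in these 3 genes, and SCAP fell slightly (-0.14 ± 0.032). GGPS1 had 3075, 2638 and 2758 with MI-503 and 3314, 3463 and 3493 with DMSO (-0.28 ± 0.050, adjusted p = 3.35e-04). LSS had 2464, 2466 and 2616 with MI-503 and 2886, 2945 and 3003 with DMSO (-0.23 ± 0.036, adjusted p = 1.21e-04). Both fell, LSS against the direction of FDFT1 in the same steps. SQLE was not called (-0.026 ± 0.031, adjusted p = 0.480, interval -0.087 to 0.036, 2 SE), nor were CYP51A1 (-0.033 ± 0.032), MVD (-0.029 ± 0.059), MVK (0.12 ± 0.058), IDI1 (-0.078 ± 0.037), NSDHL (0.13 ± 0.061), HSD17B7 (0.052 ± 0.059), SC5D (0.061 ± 0.044) and TMEM97 (0.00087 ± 0.036).

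After rescaling, the same 22 members that fell with MI-503 in MV411 rose with it in MOLM13. In OCI-AML3 11 of these rose, 2 (LSS and SREBF2) fell and 9 were not called. Of all tested genes 30.8% fell in MV411 and 29.9% rose in MOLM13, and the share with both calls was not counted. On the deposited scale only 16 members rose in MOLM13, INSIG2 fell there (-0.30), and no member was called in OCI-AML3. The difference between lines was tested directly. The MI-503 effect in MV411 minus that in MOLM13 was below 0 for 22 members and above 0 for 2 (29.0% and 24.8% of all tested genes), with a median of -2.28 (-0.011 over all genes). On the deposited scale 21 were below 0 and 5 above, where 1021 of 12836 genes were below 0 and 8920 above. GGPS1 turned there (0.36). The deposited MV411 values are centred on the genes and those of MOLM13 are not. The median of all genes in this difference was 0.52 on that scale, so the 2 scales of this difference are not alike. HMGCS1 differed most (-4.40 ± 0.13, adjusted p = 9.30e-19), with LSS (-3.82 ± 0.11), DHCR7 (-3.53 ± 0.28), MSMO1 (-3.31 ± 0.13), TM7SF2 (-3.23 ± 0.13), ACAT2 (-3.18 ± 0.092), SQLE (-3.01 ± 0.091), MVD (-2.66 ± 0.11), STARD4 (-2.60 ± 0.15), INSIG1 (-2.52 ± 0.085), FDFT1 (-2.10 ± 0.067) and TMEM97 (-1.93 ± 0.060) also lower in MV411. SCAP (0.64 ± 0.068) and MBTPS1 (0.66 ± 0.048) differed the other way, and PMVK (0.12 ± 0.083), GGPS1 (-0.18 ± 0.093) and MBTPS2 (0.16 ± 0.092) were not called. MV411 was treated for 3 days and MOLM13 for 4, so line and time cannot be told apart.

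MOLM13 and OCI-AML3 were treated for the same 4 days. The MI-503 effect in MOLM13 minus that in OCI-AML3 was above 0 for 23 members and below 0 for 2 (32.4% and 30.5% of all tested genes), with a median of 0.83 (0.0036 over all genes). On the deposited scale 8 were above 0 and 1 below, where 612 of 13030 genes were above 0 and 2610 below. GGPS1 (-0.027) and STARD4 (-0.10) turned there. HMGCS1 differed most (1.79 ± 0.13, adjusted p = 2.09e-09), followed by SQLE (1.48 ± 0.076), TM7SF2 (1.41 ± 0.14), CYP51A1 (1.37 ± 0.083), LSS (1.33 ± 0.089), MSMO1 (1.18 ± 0.078), ACAT2 (1.18 ± 0.086) and IDI1 (0.94 ± 0.074). FDFT1 (0.86 ± 0.047), SREBF2 (0.83 ± 0.035), INSIG1 (0.74 ± 0.085) and MBTPS1 (0.52 ± 0.035) were also above 0. PMVK was below 0 (-0.33 ± 0.079, adjusted p = 0.00137), as was INSIG2 (-0.22 ± 0.095, adjusted p = 0.0487), a call lost under TMM factors, DESeq2 and other settings. Without the 2 OCI-AML3 libraries that hold haemoglobin reads 23 members were above 0 and 2 below, with SCAP (-0.11, adjusted p = 0.039) in place of INSIG2 (-0.21, adjusted p = 0.11), and without DMSO replicate 3 alone 1 was below. EBP, which rose in both lines, did not pass (0.085 ± 0.069, adjusted p = 0.297), nor did SCAP (-0.091 ± 0.045).

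**Figure D5:**
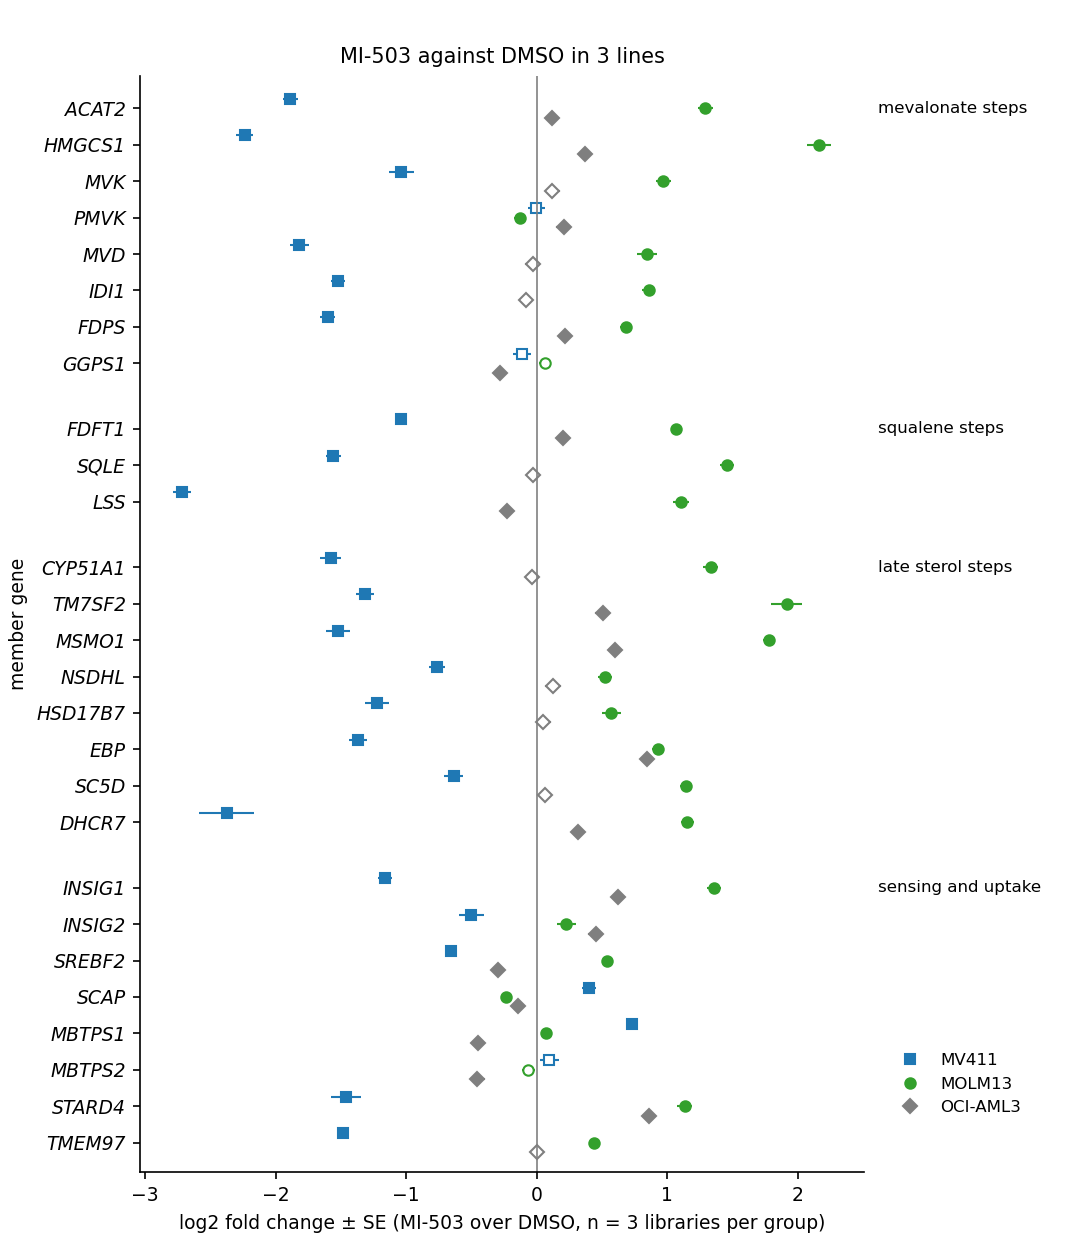
Log2 fold change with MI-503 against DMSO of the 27 members in MV411 (squares, 3 days), MOLM13 (circles, 4 days) and OCI-AML3 (diamonds, 4 days), with standard errors, n = 3 libraries per group, by step. Filled points are called at an adjusted p under 0.05. HMGCS1 stands at -2.24 in MV411, 2.16 in MOLM13 and 0.37 in OCI-AML3.

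Other genes of sterol and lipid handling were described from lists of 8 to 14 genes. Fatty acid synthesis genes, many of them targets of the related factor SREBP1, fell in MV411, with 11 of 12 lower with the combination, 11 with AC220 and 10 with MI-503, and 0 higher (medians -1.36, -1.18 and -0.83). Of all tested genes 40.1% were lower with the combination, 37.3% with AC220 and 30.8% with MI-503 in MV411. In MOLM13 10 of 12 were higher with MI-503 and 0 lower (median 0.41), where 29.9% of all tested genes were higher and 29.9% lower. In OCI-AML3 5 of 11 tested were higher and 4 lower (median 0.018), against 32.9% and 32.8% of all tested genes. With the deposited factors 3 were higher and 4 lower in MOLM13, and 1 higher and 0 lower in OCI-AML3. Of all genes tested with those factors, 903 of 13393 were higher and 10270 lower in MOLM13. In OCI-AML3 605 of 15700 were higher and 1071 lower. FADS2, a fatty acid desaturase, had 2134, 1914 and 1811 with the combination, 768, 827 and 949.7 with AC220, 5586, 5618 and 5769.8 with MI-503 and 14609, 13778 and 15828 with DMSO in MV411. AC220 took it lowest, with changes of -2.92 ± 0.065, -4.12 ± 0.065 and -1.38 ± 0.065, against 2.15 ± 0.069 in MOLM13 and -0.0051 ± 0.029, adjusted p = 0.888 in OCI-AML3. SCD, the stearoyl-CoA desaturase, changed by -3.07 ± 0.056 with the combination, -3.81 ± 0.056 with AC220 and -1.89 ± 0.056 with MI-503 in MV411, by 0.59 ± 0.042 in MOLM13 and by -0.28 ± 0.027 in OCI-AML3. ACSS2, which makes acetyl-CoA from acetate, changed by -1.30 ± 0.050 with MI-503 in MV411, 1.84 ± 0.064 in MOLM13 and 0.91 ± 0.040 in OCI-AML3.

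Of genes for sterol transport, storage and lysosomal release 7 of 10 were higher and 3 lower with the combination in MV411 (39.3% and 40.1% of all tested genes), 6 and 4 with AC220 (37.7% and 37.3%), and 7 and 2 with MI-503 (29.8% and 30.8%). With MI-503 6 of 10 were higher and 1 lower in MOLM13 (29.9% and 29.9%), and 8 and 2 in OCI-AML3 (32.9% and 32.8%). Without rescaling these were 4 and 5 in MOLM13, and 2 and 0 in OCI-AML3. All genes then gave 903 and 10270 of 13393 in MOLM13, and 605 and 1071 of 15700 in OCI-AML3. GRAMD1B, which carries sterol from the plasma membrane to the endoplasmic reticulum, had 1794, 1773 and 1657 with the combination, 1172, 1205 and 1169 with AC220, 1454, 1268 and 1346 with MI-503 and 499, 515 and 532 with DMSO. It rose in MV411 (1.75 ± 0.056 with the combination, 1.20 ± 0.056 with AC220 and 1.39 ± 0.056 with MI-503), in MOLM13 (0.95 ± 0.067) and in OCI-AML3 (2.35 ± 0.18). SOAT1, which esterifies cholesterol for storage, rose in MV411 (1.5 ± 0.068 with the combination, 0.79 ± 0.068 with AC220 and 0.77 ± 0.068 with MI-503) and fell slightly in MOLM13 (-0.17 ± 0.036) and OCI-AML3 (-0.17 ± 0.037). NPC2, the soluble lysosomal sterol carrier, rose with MI-503 in MV411 (0.64 ± 0.054), MOLM13 (1.35 ± 0.061) and OCI-AML3 (1.51 ± 0.036).

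Of sterol efflux and LXR target genes 4 of 8 were higher and 2 lower with the combination in MV411 (39.3% and 40.1% of all tested genes), 3 and 1 with AC220 (37.7% and 37.3%), and 2 and 3 with MI-503 (29.8% and 30.8%). With MI-503 4 of 7 tested were higher and 0 lower in MOLM13 (29.9% and 29.9%), and 5 of 8 and 0 in OCI-AML3 (32.9% and 32.8%). At 7 or 8 genes these counts are a description, and several stood near the share over all genes. They were 2 and 4 in MOLM13, and 0 and 0 in OCI-AML3, on the deposited scale. All genes on that scale gave 903 and 10270 of 13393 in MOLM13, and 605 and 1071 of 15700 in OCI-AML3. ABCA7, a lipid transporter, had 9459.9, 8318 and 8202 with the combination, 7351, 6639 and 6306 with AC220, 2707, 2394 and 2671 with MI-503 and 1346, 1682 and 1238 with DMSO in MV411. Each drug group lay above DMSO (2.62 ± 0.080 with the combination, 2.26 ± 0.080 with AC220 and 0.88 ± 0.080 with MI-503). ABCG1, a sterol exporter, rose too (1.57 ± 0.14 with the combination, 0.72 ± 0.14 with AC220 and 0.90 ± 0.14 with MI-503), and had no reads in MOLM13.

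In the isoprenoid branch 2 of 14 were higher and 9 lower with the combination, 1 and 9 with AC220, and 1 and 7 with MI-503 in MV411, against 1 and 6 in MOLM13 and 2 and 7 in OCI-AML3 (on the deposited scale 0 and 14 in MOLM13, and 0 and 0 in OCI-AML3). The shares over all tested genes were 39.3% higher and 40.1% lower with the combination, 37.7% and 37.3% with AC220, and 29.8% and 30.8% with MI-503 in MV411, 29.9% and 29.9% in MOLM13, and 32.9% and 32.8% in OCI-AML3. Deposited values had 903 of 13393 genes higher and 10270 lower in MOLM13, and 605 of 15700 higher and 1071 lower in OCI-AML3. PDSS1, which makes the side chain of coenzyme Q, changed by -1.66 ± 0.079 with the combination and -1.50 ± 0.079 with AC220. Of genes for sterol-regulated degradation in the endoplasmic reticulum 4 of 10 were higher and 5 lower with the combination, 5 and 4 with AC220, and 4 and 5 with MI-503 in MV411, against 4 and 3 in MOLM13 and 2 and 5 in OCI-AML3 (on the deposited scale 0 and 9 in MOLM13, and 0 and 0 in OCI-AML3). Set against the same shares over all genes, several of these counts stood near the background. RNF145, a ubiquitin ligase of this system, changed by 0.53 ± 0.049 with the combination, 0.44 ± 0.049 with AC220 and -0.19 ± 0.049 with MI-503 in MV411 and by 0.50 ± 0.036 in MOLM13.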

How the data were processed

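Poly(A) RNA was sequenced in 24 libraries, with spike-in RNA added and paired-end reads, per the labels' protocols. The submitters' processing notes name DESeq 2 and hg38, and the aligner, counter, annotation and strandedness are not given in the sources used here. The deposited values are signal, made by the authors by dividing read counts by 1 factor per library: 100% of values came back as whole reads within 0.001. MV411 factors equalled median-of-ratios factors up to a constant. The factors of MOLM13 and OCI-AML3 did not, so values there were rescaled by median-of-ratios within the table, with the deposited scale as an alternative.

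Each table was fitted with limma 3.58.1 in R 4.3.3 on log2(signal + 1) with a variance trend, for genes at 10 or more in at least 3 libraries, p-values adjusted by Benjamini-Hochberg and calls at 0.05. The pseudocount of 1 understates changes of low genes. Effects of separate lines were differenced in a joint fit of both tables. P-values measure the spread between libraries, which may be technical, since nothing says that libraries came from separate cultures. Replicate pairs of every group differed beyond sampling noise. Alternatives were other scalings, pseudocounts of 0.5 and 8, a minimum of 50, no filter, no variance trend, only the groups compared, a replicate block, leaving out each library, leaving out the 2 OCI-AML3 libraries with haemoglobin reads (chosen after seeing the data), and edgeR 4.0.16 and DESeq2 1.42.0 on the recovered reads. edgeR's quasi-likelihood test called 8819 genes with MI-503, 10866 with AC220 and 11462 with the combination in MV411, 8053 in MOLM13 and 10343 in OCI-AML3.

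Per comparison and step, genes named with library values were the 3 called members with the largest change, called members against the direction of most of their step and members with a group mean under 10, and from each other list up to 2 called genes with the largest change. Other members were added for completeness, and some genes of the other lists are followed across lines after being named in 1 comparison. The members and lists were chosen with earlier results of these data known. Positions and promoters are those of RefSeq GRCh38.p14, and exon overlaps and pseudogenes were read from GENCODE 29.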

Additional observations from a re-analysis of the deposited data

Results flagged for a closer look

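The size of the MI-503 effect differed between lines for most members, by limma's test of the difference itself with Benjamini-Hochberg adjustment. MV411 minus MOLM13 gave 24 such members. MV411 was treated for 3 days and MOLM13 for 4, so line and time cannot be told apart there. Among the mevalonate steps the log2 difference was -3.18 for ACAT2, -4.40 for HMGCS1, -2.01 for MVK, -2.66 for MVD, -2.38 for IDI1 and -2.28 for FDPS. Among the squalene steps the log2 difference was -2.10 for FDFT1, -3.01 for SQLE and -3.82 for LSS. Among the late sterol steps the log2 difference was -2.91 for CYP51A1, -3.23 for TM7SF2, -3.31 for MSMO1, -1.29 for NSDHL, -1.80 for HSD17B7, -2.30 for EBP, -1.78 for SC5D and -3.53 for DHCR7. For sensing and uptake it was -2.52 for INSIG1, -0.73 for INSIG2, -1.19 for SREBF2, 0.64 for SCAP, 0.66 for MBTPS1, -2.60 for STARD4 and -1.93 for TMEM97.

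MOLM13 minus OCI-AML3, both at 4 days, gave 25 such members. On the deposited scale 9 of these passed (8 above 0 and 1 below), where 612 of 13030 genes were above 0 and 2610 below. In the mevalonate steps this difference was 1.18 for ACAT2, 1.79 for HMGCS1, 0.85 for MVK, -0.33 for PMVK, 0.88 for MVD, 0.94 for IDI1, 0.46 for FDPS and 0.34 for GGPS1. Within the squalene steps this difference was 0.86 for FDFT1, 1.48 for SQLE and 1.33 for LSS. Over the late sterol steps this difference was 1.37 for CYP51A1, 1.41 for TM7SF2, 1.18 for MSMO1, 0.40 for NSDHL, 0.52 for HSD17B7, 1.08 for SC5D and 0.84 for DHCR7. Sensing and uptake genes had 0.74 for INSIG1, -0.22 for INSIG2, 0.83 for SREBF2, 0.52 for MBTPS1, 0.39 for MBTPS2, 0.27 for STARD4 and 0.44 for TMEM97.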

How the results depend on the processing

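Comparisons within MV411 used the deposited scale in the main fit, so there was no separate deposited-scale fit to set beside them. On the deposited scale 6 members fell in MOLM13, where 10270 of 13393 genes fell. In OCI-AML3 1676 genes were called there, with 0 members higher and 0 lower. For MOLM13 minus OCI-AML3 3222 genes were called (612 above 0 and 2610 below), with 8 members above 0 and 1 below. For MV411 minus MOLM13 5 members were above 0, where 8920 of 12836 genes were above 0. Signs turned on that scale for GGPS1 (-0.47), NSDHL (-0.0057), INSIG2 (-0.30), MBTPS1 (-0.46) and TMEM97 (-0.091) in MOLM13, ACAT2 (-0.042) in OCI-AML3, GGPS1 (-0.027) and STARD4 (-0.098) in MOLM13 minus OCI-AML3, and GGPS1 (0.36) in MV411 minus MOLM13. These turns follow the shift of the median gene between the scales. MOLM13 minus OCI-AML3 had 1 member below 0, in place of 2, with TMM factors, no filter, DESeq2 and the replicate block, the member lost being INSIG2. MOLM13 had 1 member lower, in place of 2, with no variance trend and DESeq2, the member lost being PMVK. The cause was not tested.

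With each library left out in turn, members higher with the combination against MI-503 ranged from 0 to 2, members lower in MOLM13 from 1 to 2, and members below 0 in MOLM13 minus OCI-AML3 from 1 to 2. In 2106 such values of single members none moved by over 1.5 times in its fold change. Replicate numbers did not pair libraries: same-number correlations ranged from -0.081 to 0.121 over 18 pairs in MV411, with 1 over 0.1 and 5 best with their own number, from -0.0067 to 0.070 over 3 pairs in MOLM13 and from -0.050 to 0.038 over 3 pairs in OCI-AML3. The replicate block left the count of members below 0 in MOLM13 minus OCI-AML3 at 1. Depth limits DHCR7 most, at 27 reads in 1 AC220 library.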
